A study of Mus musculus with 6 samples.

Results

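Knockdown-favouring regions are the stretches of the mouse genome where all 3 Arid3a knockdown libraries had an open-chromatin peak and at most 1 of 3 control libraries had one. There were 1831 of them among 85174 merged regions, or 2.15%. The mirror rule, a peak in all 3 control libraries and in at most 1 knockdown library, held 1166 regions, or 1.37%. The members were chosen by the peak calls of all 6 libraries, so their presence and strength are described here without a test.

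The study asked which open regions change when Arid3a is lowered in vascular smooth muscle cells. Primary mouse vascular smooth muscle cells, bought from a supplier, were transfected with siRNA against Arid3a, numbered 1, 2 and 3 in knockdown replicates 1, 2 and 3, or served as the negative control in control replicates 1, 2 and 3. The labels number the siRNA and do not give its sequence, so whether the 3 numbers are 3 different siRNAs is not stated. Per the labels' protocols cells were kept for 24 h after transfection, and each assay took 50000 cells through a Tn5 reaction of 30 min. The protocols also describe angiotensin II treatment without tying it to libraries, and they do not state that the libraries of a group were separate cultures. Any p-value given here thus reflects sample-to-sample spread alone, and that spread could be technical. The amount of Arid3a RNA or protein left after siRNA was not analysed here.

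ATAC-seq reads open chromatin, because the Tn5 transposase cuts DNA that is not wrapped in nucleosomes. Promoters of active genes and distal enhancers are the usual open sites, and distal sites differ more between cell states than promoters do. Arid3a encodes an ARID-domain protein that binds AT-rich DNA and can activate or repress genes. Vascular smooth muscle cells contract the vessel wall, and in culture they can move toward a state of growth, migration and matrix production.

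The knockdown libraries held 50543, 51279 and 41629 peaks in replicates 1 to 3, against 51330, 33248 and 52091 in the control libraries. Depth was not stated, and an estimate from the peak values gave 1.9, 1.99 and 1.19 M tags (megatags) in the knockdown libraries and 1.94, 0.95 and 2 M tags in the control libraries. The group means were 1.69 ± 0.435 and 1.63 ± 0.59 M tags (SD, n = 3 each), a difference of 0.0614 M tags (exact two-sided permutation test, p = 0.9, where the smallest possible p was 0.1). Control replicate 2 and knockdown replicate 3 were the shallowest libraries. Of the regions assigned to the smooth muscle genes Acta2 and Smtn, 1 of 6 and 4 of 8 had a peak in all 6 libraries, while 0 of 4 did at Myh11 and 0 of 3 at Cnn1. A peak in all 6 libraries was found in 22.5% of 142 regions on 18 contractile genes, 19.3% of 83 on endothelial markers, 16.7% of 24 on leukocyte markers, 22.8% of 92 on fibroblast markers, 13.6% of 44 on epithelial markers and 14.8% of 81 on neural markers. Over all merged regions, 20742 of 85174 had a peak in all 6 libraries. By this share the contractile genes were not set apart from the fibroblast markers. The share counts only regions with a peak, so genes without a region drop out of it. The 12 leukocyte markers held 24 regions and the 12 epithelial markers 44, against 142 on the 18 contractile genes. The fibroblast, endothelial and neural lists, of 12 markers each, held 92, 83 and 81. Whether these peaks set the labelled cell type apart was not tested. In bulk libraries, a different mix of cells and a different openness per cell cannot be told apart.

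Among the strongest knockdown-favouring regions at gene ends, 5 covered a transcription start listed in the promoter table used here. That table does not list every gene, and the 5 promoter windows are shown because they give the letters under the open site. Each window runs from 250 bases before the start to 50 bases after it, 5′ to 3′ on the strand of the gene, from RefSeq (GRCm38.p6, the assembly of mm10). Capitals mark a match to 1 of 8 motifs searched on both strands, and the last 50 bases of each line run from the start site.
Map2k4 (chr11:65788310-65788609, minus strand): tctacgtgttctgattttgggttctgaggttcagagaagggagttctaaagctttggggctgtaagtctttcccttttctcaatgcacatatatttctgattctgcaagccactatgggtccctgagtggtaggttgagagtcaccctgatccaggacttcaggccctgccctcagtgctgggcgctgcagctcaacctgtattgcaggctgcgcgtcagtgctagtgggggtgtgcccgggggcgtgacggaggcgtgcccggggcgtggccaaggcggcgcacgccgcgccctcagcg
Maats1 (chr16:38341811-38342110, minus strand): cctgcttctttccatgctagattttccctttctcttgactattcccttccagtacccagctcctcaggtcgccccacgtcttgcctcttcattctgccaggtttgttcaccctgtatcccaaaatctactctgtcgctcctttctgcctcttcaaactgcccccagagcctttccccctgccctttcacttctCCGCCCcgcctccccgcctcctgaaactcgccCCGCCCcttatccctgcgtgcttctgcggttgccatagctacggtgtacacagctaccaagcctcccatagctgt
Prrc2c (chr1:162740507-162740806, minus strand): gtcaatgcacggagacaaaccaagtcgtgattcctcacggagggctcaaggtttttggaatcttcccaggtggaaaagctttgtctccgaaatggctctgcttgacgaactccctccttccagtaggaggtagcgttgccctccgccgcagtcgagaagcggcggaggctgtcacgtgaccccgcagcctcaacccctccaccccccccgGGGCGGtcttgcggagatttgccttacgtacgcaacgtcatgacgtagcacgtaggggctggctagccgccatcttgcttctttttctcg
Slfn2 (chr11:83064862-83065161, plus strand): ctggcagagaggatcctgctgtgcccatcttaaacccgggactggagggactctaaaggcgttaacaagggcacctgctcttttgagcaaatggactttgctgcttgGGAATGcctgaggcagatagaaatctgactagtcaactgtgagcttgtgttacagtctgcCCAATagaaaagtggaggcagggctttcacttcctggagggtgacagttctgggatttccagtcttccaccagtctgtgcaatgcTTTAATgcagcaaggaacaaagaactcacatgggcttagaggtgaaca
Zfp65 (chr13:67729124-67729423, minus strand): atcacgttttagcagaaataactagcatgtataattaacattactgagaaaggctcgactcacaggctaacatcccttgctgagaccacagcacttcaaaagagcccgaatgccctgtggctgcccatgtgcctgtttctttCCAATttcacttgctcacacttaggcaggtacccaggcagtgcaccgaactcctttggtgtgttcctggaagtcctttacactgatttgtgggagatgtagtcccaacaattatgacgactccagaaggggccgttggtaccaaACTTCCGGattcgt

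In the Maats1 and Prrc2c windows the capitals are GC boxes, 2 and 1 of them. The Slfn2 window held 1 TEAD, 1 CCAAT and 1 ARID3A-type match in that order, and the Zfp65 window held 1 CCAAT box and 1 ETS match. The Map2k4 window held none of the 8 motifs. These matches describe letters and are not evidence of a bound factor.

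Most members had a peak in 1 control library. A peak in exactly 1 control library was present in 1463 members (1.72% of all merged regions), and 368 (0.432%) had none. The single control peak came from control replicate 1 in 695 members, from control replicate 3 in 661 and from control replicate 2 in 107. Conversely, 94.2% of members lacked a peak in control replicate 2, 62% lacked one in control replicate 1 and 63.9% in control replicate 3. Among all 28617 regions with a peak in 3 of 3 knockdown libraries, control replicate 2 lacked a peak in 24.2%, and control replicates 1 and 3 in 5.55% and 5.5%. The control library that most members lack is therefore also the shallowest control library, and the part of its depth in the count was not tested.

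**Figure D1:**
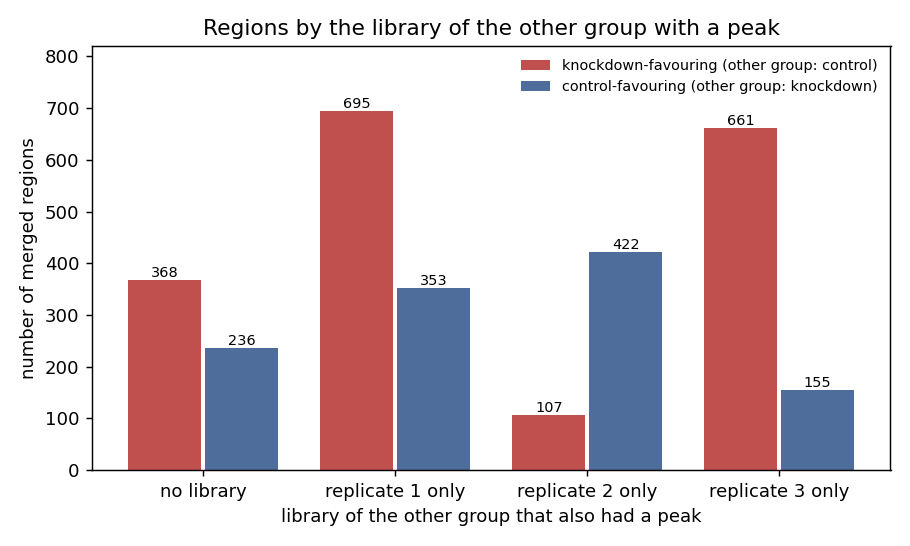
Number of merged regions (vertical axis) by the library of the other group that also had a peak (horizontal axis), for knockdown-favouring regions in red and control-favouring regions in blue. Of the knockdown-favouring regions 107 shared their peak with control replicate 2 only, against 695 with replicate 1 and 661 with replicate 3, and of the control-favouring regions 155 did so with knockdown replicate 3 only.

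In the mirror set, too, the fewest shared peaks were with the shallow library of the other group. Among the 1166 control-favouring regions, 155 had their 1 knockdown peak in knockdown replicate 3, against 353 in replicate 1 and 422 in replicate 2, and 236 had none. Sharing only with the shallow library of the other group made up 5.84% of knockdown-favouring regions and 13.3% of control-favouring regions. Leaving out 1 library changes the 2 rules unequally, so the order of the 2 counts depends on the rule kept. With at most 1 peak still allowed in the other group, knockdown-favouring and control-favouring regions numbered 3125 and 3722 without knockdown replicate 1, 3065 and 3800 without knockdown replicate 2, and 5369 and 2005 without knockdown replicate 3. Under that rule they numbered 7430 and 2068 without control replicate 1, 2688 and 5080 without control replicate 2, and 7486 and 1948 without control replicate 3. A limit of 0 peaks in the 2 libraries left of the shortened group was also used, chosen after seeing the data. Control-favouring regions then numbered 587, 661 and 394 without knockdown replicates 1, 2 and 3. Knockdown-favouring regions then numbered 1065, 478 and 1031 without control replicates 1, 2 and 3. In each case the other set kept its limit of 1 peak, so the 2 sets were not counted under like rules. The counts without 1 library therefore give no order of the 2 sets.

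The rule has a threshold at 1 control peak. Of the 28617 regions with a peak in all 3 knockdown libraries, 1.29% had 0 control peaks, 5.11% had 1, 21.1% had 2 and 72.5% had 3. Of the 6044 regions just outside, with 2 control peaks, 5190 lacked only control replicate 2, 451 only control replicate 1 and 403 only control replicate 3. The weakest knockdown peak of a region had a median −log10 q of 3.82 just inside the threshold and 5.04 just outside it. The median was 3.13 in members with 0 control peaks and 8.58 in regions with 3.

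Members were weak to moderate peaks. The −log10 q is the authors' peak-caller value, which grows with the number of reads over the background of the same library. Its median over the members was 6.16, 6.19 and 4.33 in knockdown replicates 1 to 3, and 6.63, 3.45 and 6.16 in the 695, 107 and 661 members with a peak in control replicates 1, 2 and 3. In regions present in 6 of 6 libraries the medians were 14.3, 14.8 and 9.23 in knockdown replicates 1 to 3, and 14.3, 7.44 and 14.6 in control replicates 1 to 3. The median number of tags at the summit was 8, 8 and 6 in the knockdown libraries over all members, and 9, 5 and 9 in the control libraries where a peak was called. Fold enrichment at the summit over the background of the same library had medians of 5.96, 5.91 and 5.05 in the knockdown libraries. Where control replicates 1 and 3 had a peak in a member, its median −log10 q was thus at the level of knockdown replicates 1 and 2.

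**Figure D2:**
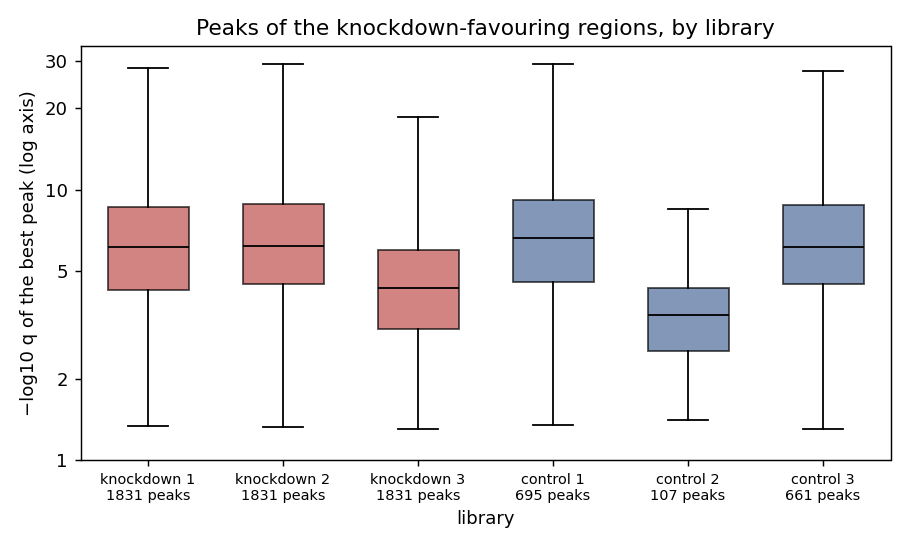
The −log10 q of the best peak in each knockdown-favouring region (vertical log axis) by library, with the number of peaks under each library. Boxes span the quartiles, lines mark the median and whiskers reach the lowest and highest value. Knockdown replicate 3 and control replicate 2, the shallowest libraries, have the lowest medians, 4.33 and 3.45.

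The weakest of the 3 knockdown peaks set how firmly a member was called. Its −log10 q had quartiles of 2.6 and 4.98 with a median of 3.59 and a maximum of 13.8. Knockdown replicate 3 gave this weakest value in 60.3% of members. A value of 5 or more was reached by 449 members (24.5%), of which 404 had 1 control peak and 45 had none, against 140 (12%) of control-favouring regions. The latter were read over the control libraries. In regions present in 6 of 6 libraries the weakest value had a median of 8.58 over the knockdown libraries and 7.14 over the control libraries. The part of depth in these differences was not tested. A value of 10 or more was reached by 25 members, only 1 of them without a control peak. The narrowest knockdown peak of a member had a median width of 212 bases, and in 858 members (46.9%) it was under 210 bases, the length of the shortest peak in the list of control replicate 2. The same share was 27.4% in regions just outside the threshold and 6.57% in regions present in 6 of 6 libraries. How far this limit of the control list shaped the members was not tested.

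The knockdown summits of a member lay close together. The distance between the outermost of the 3 knockdown summits had a median of 85 bases, and 57.3% of members had all 3 summits within 100 bases. In control-favouring regions the control summits spread over a median of 110 bases, with 45.5% within 100 bases. Regions present in 6 of 6 libraries had a median spread of 81 bases over the knockdown summits and 90 bases over the control summits. Few missing control calls had a peak close by. Of members without a peak in control replicates 1, 2 and 3, 5.81%, 2.73% and 6.5% had a peak of that library within 500 bases. For control-favouring regions without a peak in knockdown replicates 1, 2 and 3, the shares were 5.41%, 5.91% and 3.86%.

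Most members lay away from promoters. Of the 1831 members, 13.2% overlapped a gene end, a window of 1000 bases on each side of either annotated end of a protein-coding gene. A further 44.7% lay inside a gene outside those windows, 32.7% lay outside genes but within 100 kb of one, and 9.39% lay farther away. Control-favouring regions had 14.9% at a gene end. Regions present in 3 or 4 libraries, the same range of libraries as the members, had 13.2% at a gene end, 44.8% inside genes and 32% within 100 kb, while regions present in 6 of 6 libraries had 33.8% at a gene end. The position of the members thus matched that of regions found in as many libraries. Read from the side of the gene ends, 241 of 14753 gene-end regions (1.63%) were knockdown-favouring and 174 (1.18%) control-favouring, against 2.15% and 1.37% of all regions.

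**Figure D3:**
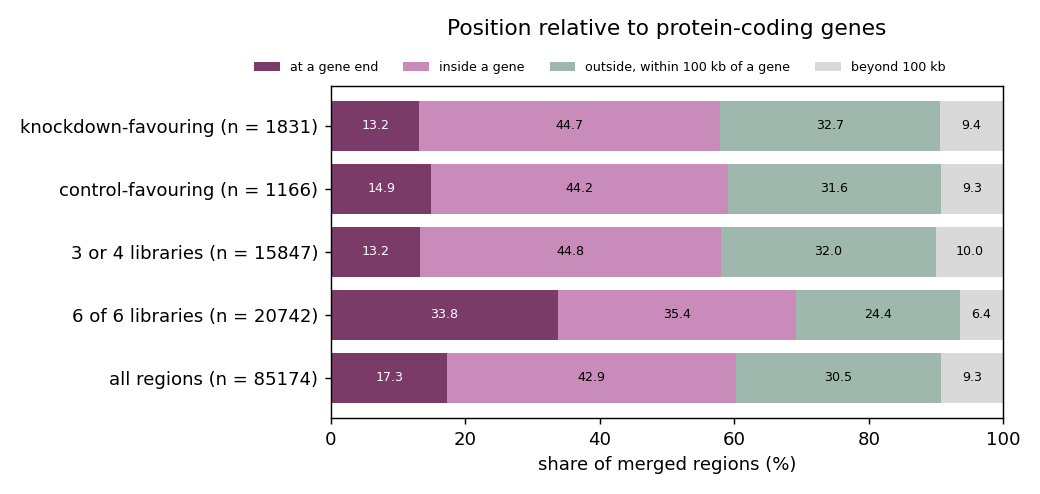
Share of merged regions (horizontal axis, percent) at a gene end, inside a gene, outside genes within 100 kb and beyond 100 kb, for knockdown-favouring regions, control-favouring regions, regions in 3 or 4 libraries, regions in 6 of 6 libraries and all regions. The gene-end share is 13.2% in knockdown-favouring regions, 14.9% in control-favouring regions and 33.8% in regions found in all 6 libraries.

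A listed transcription start lay under 121 of 1774 members (6.82%) outside chromosome 18, where no promoter table was used here. The share was 9.73% in control-favouring regions, 7.54% in regions of 3 or 4 libraries and 29.8% in regions of 6 of 6. The promoter table held 17492 protein-coding symbols, against 21887 protein-coding genes. Starts were thus missing on other chromosomes too: the member inside Ago2 on chromosome 15 had its nearest listed start 795884 bases away. Starts under members can therefore be missed. Members were spread over the chromosomes, from 1.86% of regions on chromosome 18 to 2.61% on chromosome 13, with 0 of 3 regions on Y. Few members lay close to another one. Within 10 kb of each other lay 55 members (3%), in 28 pairs, and 17 control-favouring regions (1.46%), in 9 pairs. A larger set has more neighbours for its size alone. With 1831 and 1166 regions, the 2 shares thus do not show that members cluster more.

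Under the listed promoter windows that members overlapped, GC boxes were common. Of 166 such windows 55.4% held a GC box (GGGCGG), against 58.3% of 151 windows under control-favouring regions, 68.2% of 8198 under regions in 6 of 6 libraries and 35.6% of all 32817 windows. The median GC content of these 4 sets was 59.3%, 58.7%, 61.7% and 52.7%. The ARID3A-type motif ATTAAA was present in 7.83% of the members' windows, 9.27% of the control-favouring, 5.95% of the 6 of 6 and 13.9% of all windows. AP-1 (TGANTCA) was present in 8.43%, 6.62%, 5.06% and 7.81% of the same 4 sets. In the same order, the CCAAT box (CCAAT) was in 36.1%, 31.8%, 42.4% and 37.4%, and the TATA box (TATAAA) in 8.43%, 7.28%, 5.6% and 13.6%. TEAD (GGAATG) was in 16.3%, 10.6%, 11.5% and 14.7%. The NRF1 motif was in 9.04%, 13.9%, 13.9% and 6.22%, and ETS (CCGGAAGT) in 4.22%, 6.62%, 10.2% and 3.89%. For both, the members' share lay above that of all windows and below those of the control-favouring and 6 of 6 sets. No motif of the 8 contains another. The part of GC content in these shares was not tested.

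The strongest members with 1 control peak were ranked by their weakest knockdown value. The Aopep region, inside the gene for aminopeptidase O (chromosome 13, 63243650 to 63243905, mm10), had a −log10 q of 13.8, 15.3 and 14.2 in knockdown replicates 1 to 3 and 13.7 in control replicate 1. It had no peak in control replicates 2 and 3, and its mean fold enrichment over the knockdown libraries was 8.18 ± 0.382 (SD, n = 3). The one control value was at the level of the knockdown values. The Map2k4 region (chromosome 11, 65788192 to 65788500) lay over the promoter printed above. Map2k4 encodes a kinase that activates the JNK and p38 kinases. Its −log10 q was 21.6, 16.3 and 13.5 in the knockdown replicates and 29.1 in control replicate 1, the highest of the 4. Knockdown summits fell at −49, −41 and −30 bases from the start, and the control summit at −25.

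The one control value lay above, among or below the knockdown values in the other top members. The Pxn region, inside the gene for the focal adhesion adaptor paxillin (chromosome 5, 115538612 to 115538953), had 28.1, 25.2 and 12.7 in knockdown replicates 1 to 3 and 24.3 in control replicate 1. The Col1a2 region, inside the gene for a chain of type I collagen (chromosome 6, 4539169 to 4539388), had 14.3, 15.2 and 12.5 in the knockdown replicates and 11.1 in control replicate 1. In both, the value of the one control library with a peak lay below those of knockdown replicates 1 and 2. The Flrt2 region (chromosome 12, 95790193 to 95790463) lay 5.11 kb from the gene for a transmembrane protein of the FLRT family. It had 19, 18.6 and 12.1 in the knockdown replicates and 21.9 in control replicate 3. The Slc25a44 region (chromosome 3, 88422075 to 88422543), inside the gene for a mitochondrial carrier, had 15, 12 and 12 in the knockdown replicates and 19.6 in control replicate 3. These 2 control values were above every knockdown value. The Usp3 region lay 53.4 kb from the gene for a deubiquitinase of histones. It had 20.7, 16.9 and 13.5 in the knockdown replicates and 11.7 in control replicate 3. The Rusf1 region, 22.5 kb from the gene, had 18.8, 13.4 and 13.9 in the knockdown replicates and 7.88 in control replicate 1. At Usp3 and Rusf1, as at Col1a2, the control value lay below all 3 knockdown values. The Gatd1 region had 15.7, 22 and 13.5 in the knockdown replicates and 22.8 in control replicate 1, and the BC004004 region had 19.1, 29.1 and 12.3 and, in control replicate 3, 20.2.

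**Figure D4:**
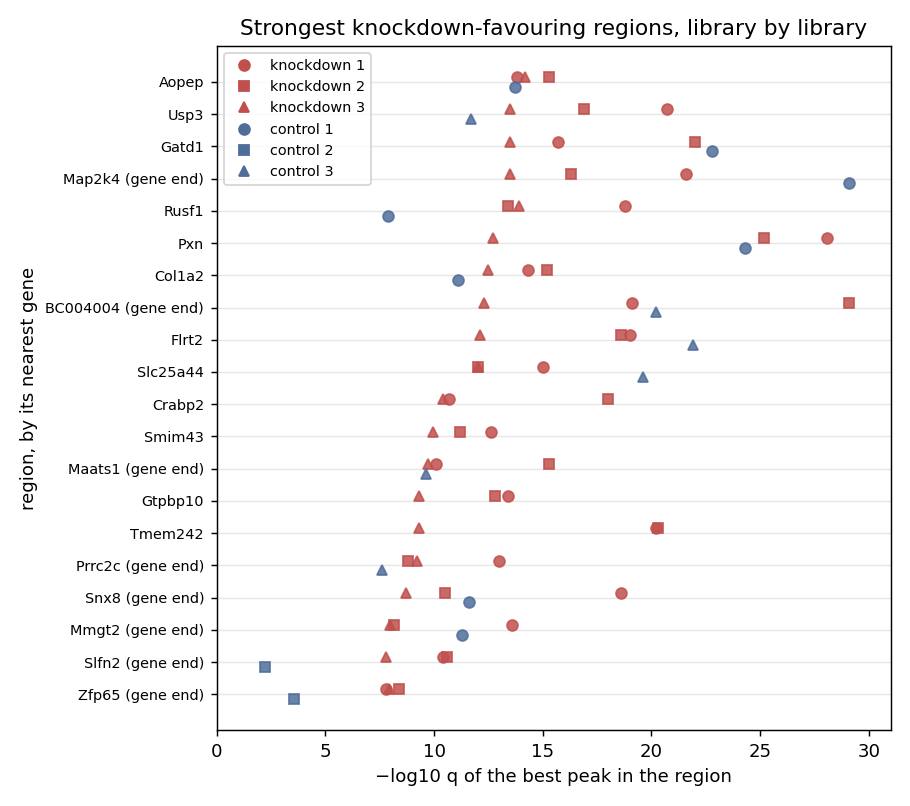
The −log10 q of the best peak (horizontal axis) in 20 named knockdown-favouring regions (vertical axis), for knockdown libraries in red and control libraries in blue, with symbols for replicates 1 to 3. A control library without a point had no peak. The control point lies above all 3 knockdown points at Gatd1, Map2k4, Flrt2 and Slc25a44, while Crabp2, Smim43, Gtpbp10 and Tmem242 have no control point.

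In the 107 members whose one control peak came from control replicate 2, the control −log10 q lay below all 3 knockdown values in 45 (42.1%), among them in 56 and above them all in 6. With control replicate 1 as the one control library, it lay below in 17.8% and above in 30.2% of 695, and with control replicate 3 in 17.2% and 29.3% of 661. These values grow with depth, and control replicate 2 was the shallowest library. The 3 strongest members with a peak in control replicate 2 were at Myo10, Wnt10a and Pcmtd2. The Myo10 region, inside the gene for an unconventional myosin of filopodia, had a −log10 q of 9.78, 11 and 11.1 in knockdown replicates 1 to 3, against 4.11 in control replicate 2. The Wnt10a region, beside the gene for a Wnt ligand, had 10.5, 13.8 and 9.21 in the knockdown replicates and 4.45 in control replicate 2. The Pcmtd2 region had 8.67, 8.06 and 7.93 in the knockdown replicates and 3.1 in control replicate 2. At all 3 the control value lay below the knockdown values, in the control library with the lowest median over the members.

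At gene ends the strongest members after Map2k4 and BC004004 were assigned to Maats1, Prrc2c, Snx8, Mmgt2, Slfn2 and Zfp65. Maats1 encodes a protein of motile cilia. Its region (chromosome 16, 38341710 to 38342118) had a −log10 q of 10.1, 15.3 and 9.74 in knockdown replicates 1 to 3 and 9.62 in control replicate 3, with knockdown summits at 22, 18 and 27 bases after the start. The Slfn2 region (chromosome 11, 83064912 to 83065316), at the promoter of a Schlafen family gene, had 10.4, 10.6 and 7.8 in the knockdown replicates and 2.22 in control replicate 2. The knockdown summits lay at −11, −95 and −93 bases, and the control summit at −13. The Zfp65 region (chromosome 13, 67729023 to 67729748), at a zinc finger gene, had 7.77, 8.37 and 7.93 in the knockdown replicates and 3.53 in control replicate 2. Its summits fell at −470 and −479 bases in knockdown replicates 1 and 2 and at −21 in replicate 3, so this region joined peaks at 2 places. The Prrc2c region (chromosome 1, 162740108 to 162740697) had 13, 8.79 and 9.21 in the knockdown replicates and 7.62 in control replicate 3.

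The strongest members with 0 control peaks lay outside gene bodies. Crabp2 encodes a protein that carries retinoic acid inside the cell, and its region (chromosome 3, 87959429 to 87959715), 6.2 kb from the gene, had a −log10 q of 10.7, 18 and 10.4 in knockdown replicates 1 to 3. Mean fold enrichment was 8.23 ± 1.04 (SD, n = 3). The Tmem242 region (chromosome 17, 5402610 to 5402935), 8.09 kb from the gene, had 20.2, 20.3 and 9.32, with 21, 22 and 12 tags at the summits. The Smim43 region, 3.31 kb from its gene, had 12.6, 11.2 and 9.97, and the Gtpbp10 region, 3.14 kb from its gene, had 13.4, 12.8 and 9.32. All 3 control libraries lacked a peak in these 4 regions, and the lists give no value there to set beside the knockdown values.

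Genes of smooth muscle and matrix biology were read through 16 lists, with each region assigned to its nearest protein-coding gene within 100 kb. Of 77272 regions so assigned, 2.15% were knockdown-favouring and 1.37% control-favouring, and 56 knockdown-favouring regions fell on a list. Among contractile genes, 4 of 142 regions (2.82%) were members, at Cald1, Myl9, Mylk and Tpm2, against 2 control-favouring. Regulators of the smooth muscle state had 4 of 256 (1.56%), at Klf4, Mrtfb, Myocd and Runx2, against 1. Matrix genes had 9 of 250 (3.6%), against 5, and TGF-beta and SMAD genes had 8 of 271 (2.95%), against 2. Inflammation genes had 8 of 160 (5%), at Cxcl1, Ccl5, Cxcl12, Il15ra, Irf1, Tnfaip3 and Vcam1, against 0. The counts are of 0 to 9 regions, so a single region moves a share by up to 4.17 percentage points in the smallest list.

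Retinoic acid genes had 6 of 174 regions (3.45%), at Crabp1, Crabp2, Rara, Aldh1a1 and Rarb, against 1, and 4 of the 6 had no control peak. Over all members 368 of 1831 (20.1%) had no control peak, and 3 of the 8 inflammation members had none. Growth factor genes had 6 of 183 (3.28%), at Egfr, Igf1r, Edn1, Fgf2 and Pdgfb, against 1. AP-1 genes had 3 of 91 (3.3%), against 0, and cell cycle genes 2 of 109 (1.83%), against 0. Proteases and inhibitors had 2 of 104 (1.92%), both at Mmp2, against 3. The ARID family had 0 of 126 regions, against 2, and none of the 6 regions at Arid3a itself was a member. Markers of other cell types had 2 of 83 (endothelial), 0 of 24 (leukocyte), 1 of 92 (fibroblast), 1 of 44 (epithelial) and 0 of 81 (neural), against 2, 1, 0, 1 and 2.

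**Figure D5:**
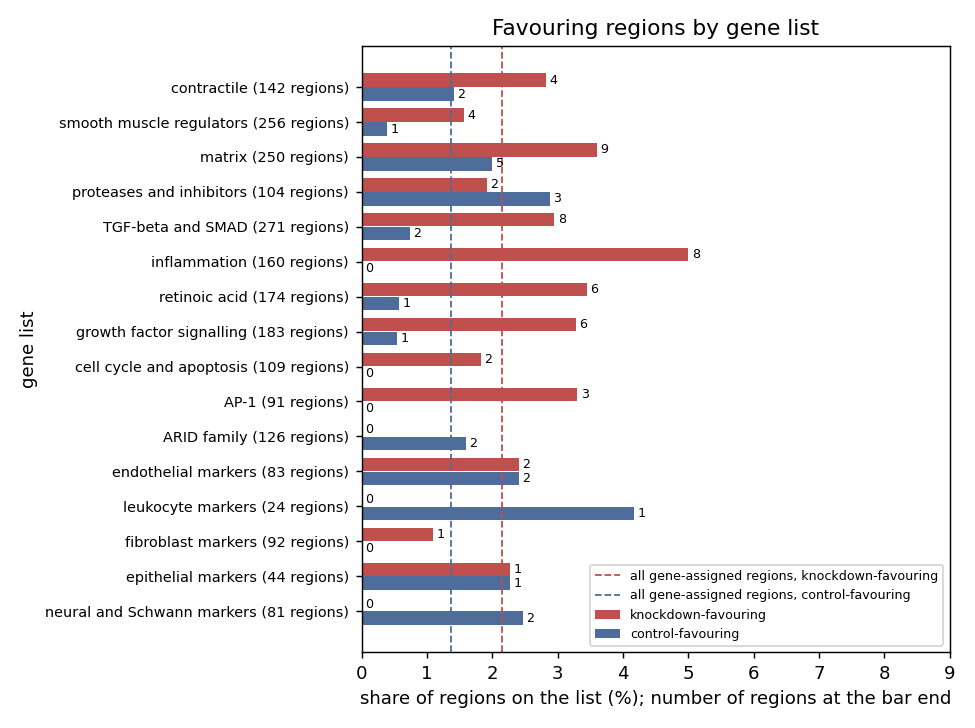
Share of the regions on each gene list (horizontal axis, percent) that were knockdown-favouring in red or control-favouring in blue, with the number of regions at the bar end and the number on the list beside its name. Dashed lines mark the 2.15% and 1.37% of all gene-assigned regions, and the inflammation list has the highest knockdown-favouring share, 8 of 160 regions.

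Of the list members, the 15 strongest by weakest knockdown value are given by role. Runx2 encodes a transcription factor of bone formation, and its region (chromosome 17, 44455602 to 44456017), 40.2 kb from the gene, had a −log10 q of 12.1, 18.4 and 8.87 in knockdown replicates 1 to 3 and 11.3 in control replicate 1. Klf4 encodes a transcription factor that represses contractile genes. Its region, 38.3 kb from the gene, had 16.1, 8.59 and 5.45 in the knockdown replicates and 3.95 in control replicate 1. Myocd encodes a coactivator of serum response factor. Its region, 0.067 kb from the gene and at a gene end, had 7.18, 5.79 and 5.64 in the knockdown replicates and 6.93 in control replicate 1. At Runx2 and Myocd the control value thus lay between knockdown values, and at Klf4 it lay below all 3. Matrix and TGF-beta members included both Thbs1 regions, with 8.37, 18.3 and 11 in the knockdown replicates and 15.3 in control replicate 1 at the first, and 7.24, 10.2 and 6.96 against 13.8 in control replicate 3 at the other. The first lay 9.5 kb from the gene and the other inside it. Thbs1 encodes thrombospondin-1, which can activate latent TGF-beta. The Tgfbr1 region, inside the gene for a TGF-beta receptor, had 6.16, 6.19 and 5.62 in the knockdown replicates and 13.5 in control replicate 3. The Smad7 region, 30.3 kb from the gene for an inhibitory SMAD, had 8.92, 9.75 and 6.52 in the knockdown replicates and no control peak. The Ltbp2 region, inside the gene for a latent TGF-beta binding protein, had 11.8, 16.6 and 8.85 and, in control replicate 3, 15.2.

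Receptor, cell cycle and adhesion genes were also among the 15. Igf1r encodes the receptor for insulin-like growth factor, and its region had 8.91, 12.5 and 5.81 in knockdown replicates 1 to 3 and 6.24 in control replicate 1. Egfr encodes the receptor for epidermal growth factor, with 9.48, 9.21 and 4.9 in the knockdown replicates and 10.2 in control replicate 1. Ccnd2 encodes cyclin D2, with 9.43, 6.85 and 10.2 in the knockdown replicates and 7.33 in control replicate 3. None of these 3 control values lay below all 3 knockdown values. The Igf1r, Egfr and Ccnd2 regions lay inside the genes. The region of Vcam1, a leukocyte adhesion molecule, lay inside the gene and overlapped a gene end. It had 5.14, 6.86 and 7.2 in the knockdown replicates and 7.17 in control replicate 1. The region of Krt8, a keratin of epithelial cells, lay 6.54 kb from the gene. It had 5.97, 6.17 and 5.2 in the knockdown replicates and 5.97 in control replicate 1. At Vcam1 and Krt8 the control value lay within the knockdown range, and at Egfr it lay above all 3 knockdown values. Some of these members depended on the settings: Ltbp2 and Myocd were no longer members when peaks had to cover 50% of the region, Myocd, Krt8 and Vcam1 with lists of equal length, and Egfr with −log10 q of 5 or more.

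Counted by gene, 1482 of 21887 protein-coding genes had a member, 1331 of them with 1, 131 with 2 and 20 with 3 or more. Of all 77272 gene-assigned regions, 2.15% were members. The same count for control-favouring regions is not given here, so these numbers do not show that members gather in certain genes. Foxp1, a forkhead transcription factor gene 597 kb long, had 5 of its 75 regions among the members and 0 control-favouring. Pde4d, which encodes a phosphodiesterase of cyclic AMP and is 1302 kb long, had 5 of 70, against 2. Prkg1 encodes the cyclic GMP-dependent kinase that relaxes smooth muscle, and 4 of its 47 regions were members, against 0. Rad51b, a gene of recombination repair, had 4 of 51, against 1. Their weakest knockdown values ran from 3.13 to 6.09 at Foxp1, 1.31 to 7.43 at Pde4d, 2.57 to 8.14 at Prkg1 and 2.11 to 8.87 at Rad51b. These 4 are long genes with many regions. The 16 others with 3 members are Ajuba, Atf6, Auh, Ext1, Ldlrad4, Lhfp, Plcb1, Rbms3, Sgms1, Sorbs2, Thada, Tle3, Tmeff2, Trhr, Trps1 and Zbtb7c. Of these, Rbms3 had 3 of 43 regions as members against 3 control-favouring, and Zbtb7c 3 of 41 against 1. The rest had no control-favouring region. Not all were long: Ajuba, 10.2 kb long, had 3 of 6 regions as members, and Trhr, 40 kb long, 3 of 9.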

How the data were processed

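The sources used here are 6 deposited peak lists, 1 per library, from ATAC-seq of mouse vascular smooth muscle cells. The submitters' processing notes name Bowtie2, Picard, MACS2 and the build mm10. Not given in the sources used here are versions, parameters, duplicate treatment, the peak-calling control and any Tn5 shift. Per the file columns the authors deposited, each peak has a fold enrichment, a −log10 p, a −log10 q and a score (10 times the −log10 q, cut to a whole number, in at least 99.988% of peaks per library), all scaled within a library. Summit tags were recovered as whole numbers from the authors' fold and −log10 p (tolerance 0.001) in 99.996% or more of each library's peaks. The same step gave each peak's background, and depth used its most common value in the library. That value was multiplied by the default MACS2 mouse genome size and divided by the library's shortest peak length, 164 to 210 bases. This genome size, and the shortest peak as fragment length, were assumed. Duplicates and read shift could change weak peaks.

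Peaks on chromosomes 1 to 19, X and Y were merged where they shared at least 1 base, and a library was present in a region where any of its peaks overlapped. Each region took the name of the closest protein-coding gene in RefSeq GRCm38.p6 whose body lay at most 100 kb from the region's midpoint, and exonic and intronic positions were not separated. Members and lists were chosen with earlier results of these data known. Regions named are the 10 strongest with 1 control peak, the 3 strongest per control library, the 8 strongest at gene ends, the 15 strongest on the lists, genes with 3 or more members and the 4 strongest with 0 control peaks, ranked by the weakest knockdown −log10 q. Only estimated depth was tested, by exact permutation over the 20 relabellings. Over 20742 regions present in all, each library's log fold enrichment was taken as a deviation from its group mean. These deviations correlated at 0.041, −0.054 and −0.052 between same-numbered libraries. The highest of all correlations, 0.101, joined knockdown replicate 3 and control replicate 2, the shallowest libraries. Deviations from a mean of 3 libraries are tied to each other, so these values cannot show whether replicate numbers pair the libraries. Scripts used Python 3.11.15, numpy 2.4.6, pandas 2.3.3, scipy 1.17.1 and matplotlib 3.10.9, and were tested on simulated data. Alternatives are in the closing section.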

Additional observations from a re-analysis of the deposited data

How the results depend on the processing

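Counts of knockdown-favouring and control-favouring regions stayed within 1.5 times when peaks had to cover 50% of the region (2014 and 1611), with lists of equal length (1422 and 1012) and with summit windows (1902 and 1189). With −log10 q of 5 or more they were 1144 and 485, of fewer peaks. Knockdown-favouring regions were the more numerous in all 4 of these. All 4 kept control replicate 2, the shallowest library, so they do not separate this order from its depth. Leaving out 1 library gave 2688 to 7486 knockdown-favouring and 1948 to 5080 control-favouring regions. With 0 peaks allowed in the other 2 libraries, a setting chosen after seeing the data, there were 1065, 478 and 1031 knockdown-favouring regions without control replicates 1, 2 and 3, and 587, 661 and 394 control-favouring regions without knockdown replicates 1, 2 and 3. Leaving out a library changes the 2 rules unequally, so these counts give no order. The share at a gene end, 13.2%, was 16.8% with 50% cover, 15.9% with −log10 q of 5 or more, 15.3% with equal lists, 9.94% and 19% with windows of 500 and 2500 bases, and 12.1% to 16.8% without 1 library. The share with 0 control peaks, 20.1%, was 14.9% with −log10 q of 5 or more and 13.8% to 29.2% without 1 library. The median weakest knockdown −log10 q, 3.59, was 4.71 with 50% cover, 6.25 with −log10 q of 5 or more, 5.62 with equal lists and 3.58 to 4.71 without 1 library. Of the 102 named regions 55 were kept with −log10 q of 5 or more and 53 with equal lists; all 10 of the strongest with 1 control peak and all 4 with 0 control peaks were kept under these 4 settings, while Wnt10a and Zfp65 were lost with 50% cover. The difference in estimated depth was −0.0412 without knockdown replicate 1, −0.0857 without knockdown replicate 2 and −0.279 without control replicate 2, and −0.279 to 0.311 M tags over all libraries left out. With the replicate block, pairing by number, it was 0.0614 M tags (exact sign-flip p = 1, smallest possible 0.25). The cause of these moves was not tested. Depth limits every list: the median summit held 8 to 11 tags, so a missing peak is not shown to be closed chromatin.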

Other observations

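Members within 1000 bases of a microRNA hairpin, looked up after the regions were chosen, lay at 4 hairpin sites. The share of all merged regions this close to a hairpin is not given here. The 4 sites thus do not show that members lie near hairpins more often than other regions. The region 502 bases from Mir22 had a −log10 q of 5.53, 8.6 and 5.01 in knockdown replicates 1 to 3 and 2.09 in control replicate 1. The region 510 bases from Mir882 had 11.9, 17.9 and 8.46 in the knockdown replicates and 4.72 in control replicate 3. The region 620 bases from Mir5617 had 7.42, 10.4 and 4.95 in the knockdown replicates and 5.96 in control replicate 1. The region 226 bases from Mir3083 had 5.26, 4.26 and 5.33 in the knockdown replicates and no control peak. Whether these hairpins are transcribed in these cells was not analysed here.

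Pairs of members within 10 kb, seen after their values were known, included 2 regions by Adm, the gene for the vessel-relaxing peptide adrenomedullin, with weakest knockdown values of 8.83 and 5.87. Other pairs lay at Ets1, a transcription factor gene (5.03 and 5.79), at the chemokine gene Ccl9 (4.98 and 8.25) and at Bdkrb2, a bradykinin receptor gene (3.99 and 5.97).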
